A study of Danio rerio with 28 samples.

Results

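The genes described here are the Rh glycoprotein genes rhcga, rhcgb, rhbg and rhag, which encode ammonia transporters, together with ca2, ca15a, trpv6, foxi3a and atp2b1b. They were grouped as genes of ammonia transport and of ion-transporting skin cells. Their members were the probes whose RefSeq accession or gene name was one of these 9 genes, and 8 of the 9 had a probe, with 13 of the 43603 probes of the array and 8 of 10538 named genes in all. No probe was matched to foxi3a, which encodes a forkhead factor of ionocyte precursors, and it was not analysed here. Both probes of rhcgb and the probe of atp2b1b carry no accession in the reference table and took their names from the study's list of E2-altered genes, so their calls are not independent of how they were found. The study also lists rhcga as lower with E2 in these data, and the members were chosen with earlier results of these data known. Of the 8 genes, 5 had a pair of probes, and the probe with the higher mean signal over all arrays is called the main probe of its gene.

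Whole zebrafish embryos of the wild-type strain DZ were kept from about 3 h post fertilization (hpf) in medium with 1 μM 17β-estradiol (E2) or with the vehicle, 0.1% dimethylsulfoxide (DMSO), both renewed daily. The E2 medium also contained DMSO. Stages are named by days post fertilization (dpf). RNA was taken from embryos at 24 hpf (called 1 dpf), at 48 hpf (2 dpf), at 72 hpf (3 dpf) and at 104 hpf (called 4 dpf), and each sample was a pool of 30 embryos. Each arm had 3 pools per stage at 1 and 2 dpf and 4 pools per stage afterwards, and the methods state that clutches were split between the arms and that replicates came from different batches of embryos. The RNA is of the whole embryo, and fewer cells of a type and less RNA per cell cannot be told apart in it.

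Fish excrete most of their nitrogen as ammonia. Before the gills take over, zebrafish embryos do so through the skin, where scattered ionocytes also take up sodium, chloride and calcium and secrete acid. Rh glycoproteins let ammonia cross the cell membrane, carbonic anhydrases such as those encoded by ca2 and ca15a supply protons in acid-secreting (HR) ionocytes, and the calcium channel Trpv6 lets calcium into the NaR type of ionocyte, while Atp2b1b belongs to the plasma membrane pumps that carry calcium out of cells. The comparison asked which of these genes differed between E2 and DMSO embryos at each stage and how each changed as the embryos grew.

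All values are the logarithm to base 2 of the quantile-normalized array signal, so a difference of 1 is a doubling, and levels of different probes are not set against each other. Between 58.1% and 96.1% of the spots of an array were well above background, and the highest share belonged to E2 replicate 1 of 3 dpf, while the next highest was 73.8% and the median 71.0%. That array also had the lowest weight of the 28 when arrays were weighted by their fit (0.0456), and the changes at 3 dpf are given with and without it. Fits without it keep DMSO replicate 1 of 3 dpf, the other array of its pair. Brain aromatase, cyp19a1b, a gene that estrogen induces, was higher in E2 embryos by 2.60 at 2 dpf, 5.38 at 3 dpf and 6.67 at 4 dpf on the log2 scale, past both thresholds of the study each time, and its difference of 0.64 at 1 dpf did not pass. On DMSO replicate 2 of 3 dpf cyp19a1b was at 7.87, against 4.15 to 4.54 on the other DMSO arrays and 10.24 to 10.84 on the E2 arrays of that stage. Comparisons used limma with the replicate number as a block, a probe is said to pass the study's thresholds at an unadjusted p of 0.01 or less with a fold change of at least 1.4, and adjusted p-values are Benjamini-Hochberg values over all 43603 probes. The small number of arrays limits the precision of each value.

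rhcga was lower in E2 embryos than in DMSO embryos at 3 dpf. At that stage both rhcga probes and 1 rhbg probe passed the study's thresholds, all 3 lower in E2 embryos, and no member probe passed them at 1, 2 or 4 dpf in the fit used here. By its own fit the study lists rhcga as lower at 2 and 3 dpf and rhcgb as lower at 3 dpf. Over all probes 0.468% passed the study's thresholds as lower at 3 dpf here, while 0.406%, 0.229%, 0.766% and 0.493% passed in either direction at 1, 2, 3 and 4 dpf. No member probe reached an adjusted p under 0.05 at any stage, against 0.0%, 0.00688%, 0.0321% and 0.0871% of all probes at 1, 2, 3 and 4 dpf. At 3 dpf 6 of the 13 had an unadjusted p under 0.05, all 6 lower, where 3.9% of all probes were, and at the other stages none had, where 1.81%, 1.32% and 2.79% of all probes had at 1, 2 and 4 dpf. Without E2 replicate 1 the number at 3 dpf was 3 of 13, and 2 of these, both for rhcga, passed the study's thresholds, where 2.13% and 0.39% of all probes did. Since the members were chosen with earlier results of these data known, their counts are no test of the set against all probes.

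On the main probe of rhcga (A_15_P142661), the log2 signal at 3 dpf was 6.36, 5.23, 4.95 and 4.98 in E2 replicates 1 to 4, against 7.92, 8.32, 5.55 and 6.73 in DMSO replicates 1 to 4. E2 replicate 1 was the highest of its group and was the only E2 array above a DMSO array, which was DMSO replicate 3. The change was -1.75 (SE 0.51), a 3.37-fold lower signal, with a limma p of 0.00268 and an adjusted p of 0.654. On the other probe (A_15_P223536) E2 replicates 1 to 4 read 2.66, 2.31, 1.89 and 2.51, and DMSO replicates 1 to 4 read 5.87, 5.26, 3.46 and 4.19. The groups did not overlap, as was the case in this direction for 1.14% of all probes. Only 1 of the 4 E2 arrays but all 4 DMSO arrays were well above background on this probe, and the change was -2.35 (SE 0.46, limma p 5.8e-05, adjusted p 0.115). It is given without a fold, since the E2 mean rests mostly on signals near background.

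**Figure D1:**
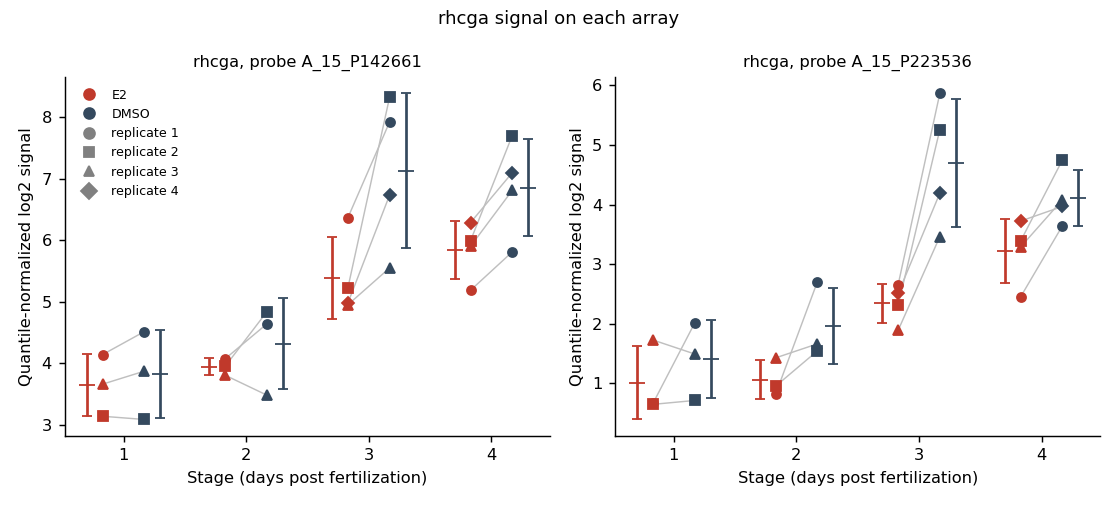
Log2 signal of both rhcga probes (vertical axis) at 1 to 4 dpf (horizontal axis), with E2 arrays to the left of DMSO arrays, grey lines joining replicates of the same number and bars giving mean ± SD. At 3 dpf every grey line goes up towards DMSO, and the E2 means of 5.38 and 2.34 lie below the DMSO means of 7.13 and 4.70.

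Every pair of same-numbered pools had less rhcga signal with E2 at 3 dpf. E2 minus DMSO was -1.56, -3.10, -0.60 and -1.75 in pairs 1 to 4 on the main probe and -3.21, -2.95, -1.57 and -1.68 on the other, so that pair 3 had the smallest difference on both. Of all probes 8.47% were lower in every pair at this stage. Pairs 1, 3 and 4 were each hybridized on 1 slide, and their mean difference was -1.30 on the main probe and -2.15 on the other. Pair 2 was split between slides. With the slide in place of the replicate number as the block, the changes were -1.72 and -2.28, and both probes passed the study's thresholds.

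Single arrays moved the rhcga call of the main probe but not that of the other. Without E2 replicate 1 the changes were -2.05 (SE 0.54, p 0.00126) on the main probe and -2.43 (SE 0.51, p 0.000142, adjusted p 0.224) on the other. DMSO replicate 1, of the same pair, stayed in this fit and was the highest DMSO array on the other probe, at 5.87. The main probe missed the p threshold without DMSO replicate 1 (-1.53, p 0.0130), without E2 replicate 4 (-1.59, p 0.0122) and without DMSO replicate 2 (-1.36, p 0.0179), the array with the raised cyp19a1b signal, on which rhcga was also highest. Without that DMSO array the other probe was at -2.12 (p 0.000449). With DMSO replicate 3 left out, its lowest DMSO array at 3.46, the other probe reached an adjusted p of 0.0280 at a change of -2.79. In that fit 11 of all 43603 probes had an adjusted p under 0.05. Without the replicate block the adjusted p of the other probe was 0.0485, and 0.0344% of all probes then had an adjusted p under 0.05. The main probe also missed the p threshold by the one-way analysis of variance of the methods (p 0.0213), and both probes did after scaling to the 75th percentile. With only the 3 dpf arrays fitted, so that the block is the pair of that stage, the main probe missed it too (p 0.0144).

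At 4 dpf rhcga was again lower in 4 of 4 pairs on both probes, where 6.08% of all probes were, but neither probe passed a threshold. The main probe read 5.18, 5.99, 5.90 and 6.28 in E2 replicates 1 to 4 and 5.81, 7.70, 6.81 and 7.09 in DMSO replicates 1 to 4, a change of -1.01 (SE 0.51, p 0.0604). The groups overlapped, since 3 E2 arrays were above DMSO replicate 1, and without that DMSO array the change was -1.50 (p 0.00689) and passed the study's thresholds. With only the 4 dpf arrays fitted, so that the block is the pair of that stage, both probes passed them (p 0.00507 and 0.00928). Of all probes 300 passed in that fit, against 215 in the fit of all arrays. E2 replicate 4 of this stage had 529 outlier spots, where the median array had 9, and the lowest share of spots above background, 58.1%. Without it the rhcga changes were -1.22 (limma p 0.0437) on the main probe and -1.12 (p 0.0397) on the other, neither past the study's thresholds. The other probe read 2.46, 3.39, 3.29 and 3.73 with E2 and 3.65, 4.75, 4.08 and 3.97 with DMSO, a change of -0.90 (SE 0.46, p 0.0650), and was well above background on 1 of 4 E2 arrays and 4 of 4 DMSO arrays.

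Before 3 dpf rhcga was dim. At 1 dpf the main probe averaged 3.64 ± 0.50 in E2 embryos and 3.82 ± 0.72 in DMSO embryos (SD, n = 3 each). At 2 dpf it averaged 3.94 ± 0.14 with E2 and 4.32 ± 0.73 with DMSO, and the groups overlapped at both stages. The other probe was not well above background on any array of 1 or 2 dpf, so it gives no fold there, although its 2 dpf E2 arrays, at 0.82 to 1.43, all lay below the DMSO arrays, at 1.54 to 2.70, as was the case for 1.57% of all probes.

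The E2 difference of rhcga was also set against itself between stages. The joint test of the 3 stage-by-E2 terms gave a limma p of 0.0489 on the A_15_P223536 probe and 0.195 on the main probe, with no member probe at an adjusted p under 0.05, while 0.0734% of all probes were and 1.37% had an unadjusted p under 0.05. These were 0.0600 and 0.106 without E2 replicate 1 of 3 dpf. On the main probe the change at 3 dpf minus that at 1 dpf was -1.57 (SE 0.77, p 0.0565), and the change at 4 dpf minus that at 3 dpf was 0.74 (SE 0.72, p 0.316). The A_15_P223536 probe was not well above background at 1 or 2 dpf, so its test rests in part on signals near background.

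rhbg, which encodes an Rh glycoprotein of epithelia, was lower with E2 at 3 dpf on the A_15_P204256 probe, but the call rested on single arrays. E2 replicates 1 to 4 read 4.98, 5.66, 6.36 and 6.21, against 6.73, 6.30, 6.78 and 6.52 in DMSO replicates 1 to 4. E2 replicate 1 was lowest, and only E2 replicate 3 lay above a DMSO array. The change was -0.78 (SE 0.23, p 0.00325, adjusted p 0.654), or 1.71-fold. It was -0.49 (SE 0.19, p 0.0204) without E2 replicate 1 and -0.69 (p 0.0144) without DMSO replicate 1, and neither passed the study's thresholds. It also missed them with array weights (-0.38), with normexp background correction (-0.40) and after scaling to the 75th percentile (-0.35). The same held with only the 3 dpf arrays fitted (p 0.0531) and by the one-way analysis of variance written here after the methods (p 0.0333).

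The brighter main probe of rhbg gave a smaller difference in the same direction. It read 7.86, 8.28, 8.78 and 9.02 in E2 replicates 1 to 4 and 8.52, 8.44, 9.25 and 9.13 in DMSO replicates 1 to 4, lower in 4 of 4 pairs with wide overlap of the groups. The change was -0.35 (SE 0.16, p 0.0371), and -0.28 (SE 0.17, p 0.112) without E2 replicate 1. At 1, 2 and 4 dpf the changes were -0.15, -0.21 and -0.06 on the main probe and -0.03, -0.55 and -0.15 on the other, none past the study's thresholds.

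The rhcgb probes disagreed at 3 dpf, and E2 replicate 1 set the difference. The main probe (A_15_P117649) read 0.83, 5.96, 6.65 and 6.87 in E2 replicates 1 to 4 and 6.77, 6.72, 7.41 and 7.32 in DMSO replicates 1 to 4. The other probe (A_15_P141901) read 7.29, 2.70, 3.84 and 4.74 with E2 and 4.03, 3.37, 5.34 and 4.99 with DMSO. On E2 replicate 1 the main probe was thus the lowest of all 8 arrays and the other probe the highest.

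The changes were -1.98 (SE 0.77, p 0.0185) on the main rhcgb probe and 0.21 (SE 0.72, p 0.773) on the other. Without E2 replicate 1 they were -0.60 (SE 0.29, p 0.0535) and -0.80 (SE 0.55, p 0.166), both negative and neither past a threshold. With that array kept, the main probe passed the study's thresholds when E2 replicate 3 (-2.52, p 0.00548) or E2 replicate 4 (-2.55, p 0.00554) was left out instead. Of all probes 898 and 925 passed in those fits, against 334 with all arrays. With all arrays the main probe also passed after scaling to the 75th percentile (-0.92, p 0.00668) or normexp background correction (-0.70, p 0.00158). Before normalization the processed signal of the main probe on E2 replicate 1 was 22.2, against 77.5 to 145 on the other E2 arrays and 76.8 to 230.1 on the DMSO arrays, and that of the other probe was 133 there, against 7.95 to 34.2 on the other E2 arrays and 7.02 to 56.7 on the DMSO arrays. Over all 28 arrays the probes correlated at r = 0.760, and at 0.957 without that array.

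At 4 dpf rhcgb did not differ by more than the spread. The main probe read 9.60 to 10.18 on the E2 arrays and 9.58 to 10.04 on the DMSO arrays, a change of 0.17 (SE 0.77), and the other probe changed by 0.22 (SE 0.72). E2 replicate 1 of 3 dpf widens these SEs, which were 0.26 and 0.51 without it. At 1 and 2 dpf the main probe changed by 0.06 and -0.26. The other probe was well above background on 1 of 12 arrays of those stages.

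**Figure D2:**
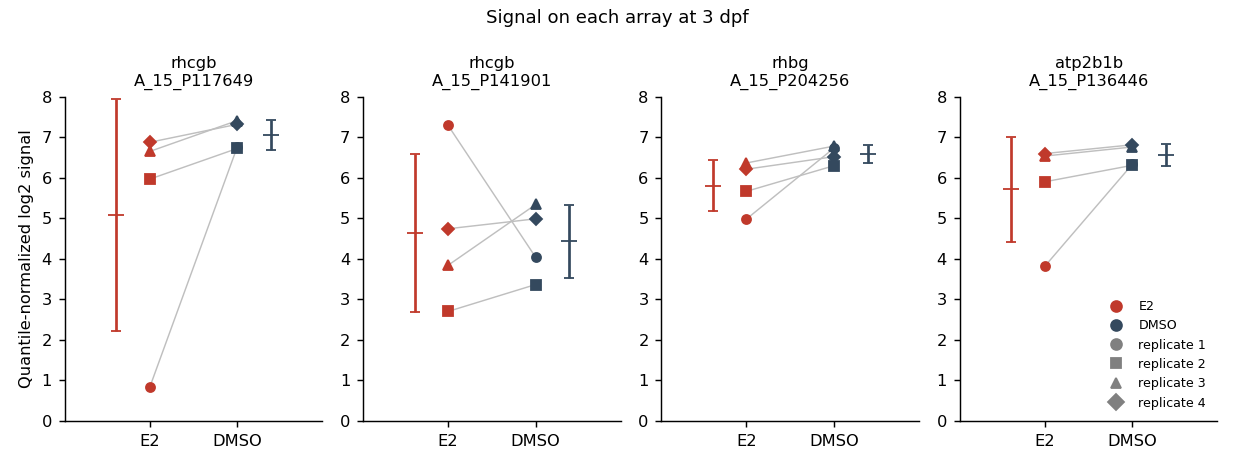
Log2 signal at 3 dpf (vertical axis) of both rhcgb probes, the A_15_P204256 probe of rhbg and the atp2b1b probe, with E2 arrays left of DMSO arrays, grey lines joining replicates of the same number and bars giving mean ± SD (4 arrays each). E2 replicate 1 (red circle) is the lowest E2 array in each panel but the second, where it is the highest, at 0.83 and 7.29 for rhcgb, 4.98 for rhbg and 3.81 for atp2b1b.

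atp2b1b, the calcium pump gene, had the same array at the bottom of its group. It read 3.81, 5.90, 6.53 and 6.60 in E2 replicates 1 to 4 and 6.33, 6.31, 6.76 and 6.81 in DMSO replicates 1 to 4 at 3 dpf. The change was -0.84 (SE 0.33, p 0.0205), and -0.35 (SE 0.23, p 0.152) without E2 replicate 1. It passed the study's thresholds only when E2 replicate 4 was left out (-1.13, p 0.00426), a fit in which 925 of all probes passed, against 334 with all arrays. At 1, 2 and 4 dpf the changes were 0.44, -0.15 and -0.20. The study's tissue analysis assigns atp2b1b to liver, kidney, ovary and testis at 3 dpf. Its expression in skin cells was not tested here.

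The remaining genes showed no E2 difference past a threshold at any stage. For rhag, which in mammals encodes the Rh-associated glycoprotein of red blood cells, E2 embryos read 10.11, 9.52, 9.17 and 9.28 and DMSO embryos 10.11, 9.62, 9.10 and 9.21 at 3 dpf, a change of 0.01 (SE 0.28), and of -0.12 without E2 replicate 1. The replicates of a number lay close together while the numbers differed, and the summed level of 10 red blood cell markers was 19.07 to 19.40 with E2 and 19.12 to 19.40 with DMSO. The rhag changes were -0.22, 0.21 and 0.14 at 1, 2 and 4 dpf.

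ca2 and ca15a changed little. The main ca2 probe read 13.70, 13.74, 13.72 and 13.89 in E2 embryos and 14.04, 13.78, 14.10 and 13.83 in DMSO embryos at 3 dpf, a change of -0.18 (SE 0.15), and the other probe changed by -0.20 (SE 0.15). These were -0.17 and -0.20 without E2 replicate 1. At the other stages the changes of both probes lay between -0.22 and 0.06. ca15a changed by -0.21 (SE 0.19) at 3 dpf, with E2 replicate 1 lowest at 8.80 and the other E2 arrays at 9.43 to 9.99, against 9.53 to 9.81 in DMSO embryos. Its change was -0.04 without E2 replicate 1.

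trpv6 differed in sign between stages and passed no threshold at any. At 2 dpf its changes were 0.05 (SE 0.48) on the main probe and 0.49 (SE 0.39, p 0.219) on the other. At 3 dpf they were -0.09 (SE 0.42) and -0.23 (SE 0.34), and 0.31 and -0.26 without E2 replicate 1, so that the main probe changed sign. At 4 dpf they were 0.10 (SE 0.42) and 0.49 (SE 0.34, p 0.161), and the A_15_P101761 probe read 9.28, 9.29, 9.01 and 8.32 with E2 and 8.83, 8.30, 8.84 and 7.96 with DMSO. The main probe read 5.72 on DMSO replicate 2 of 3 dpf, against 7.48 to 8.64 on the other DMSO arrays, so its DMSO spread (SD 1.31) was wider than its change.

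**Figure D3:**
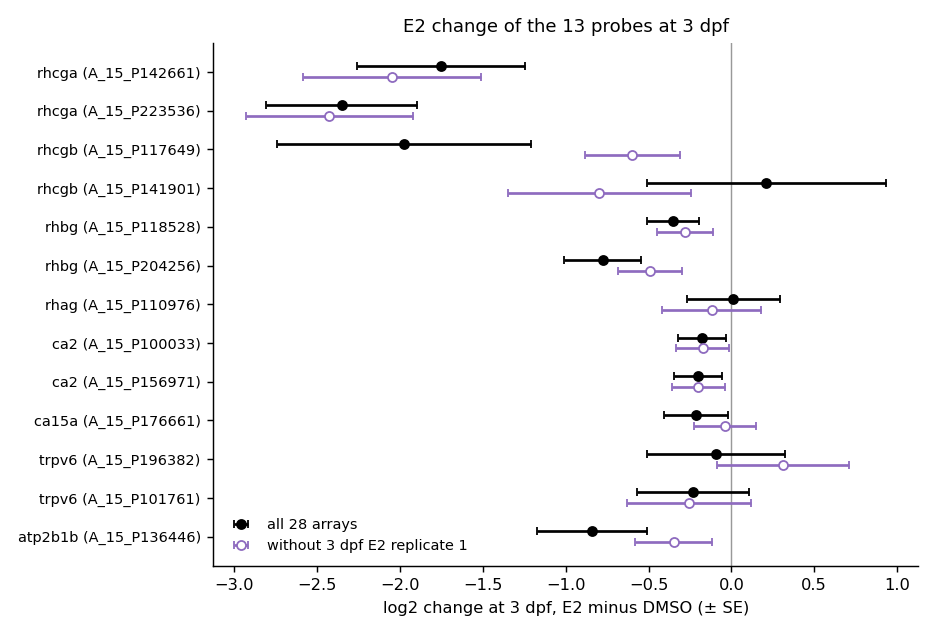
Log2 change at 3 dpf, E2 minus DMSO (horizontal axis, bars ± SE), of the 13 probes, with all 28 arrays (filled) and without E2 replicate 1 of 3 dpf (open). Both rhcga probes stay below -1.5 either way, while the main rhcgb probe moves between -1.98 and -0.60 and atp2b1b between -0.84 and -0.35.

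Over the 13 probes, 11 had a negative change at 3 dpf, with a median of -0.23 and a range of -2.35 to 0.21, where the median over all probes was -0.02 and 53.5% were negative. With E2 replicate 1 left out, 12 of the 13 were negative, with a median of -0.28. At 1, 2 and 4 dpf 10, 6 and 6 of the 13 were negative, with medians of -0.16, 0.05 and 0.05, where the medians over all probes were 0.02, 0.01 and 0.00. Lower in every pair were 3, 2, 7 and 2 of the 13 at 1, 2, 3 and 4 dpf, where 8.91%, 11.2%, 8.47% and 6.08% of all probes were. Probes of a gene share their transcript and are not independent, and the set was chosen with earlier results of these data known. E2 replicate 1 was the lowest E2 array for 7 of the 13 probes at 3 dpf, the highest for 5 and between for 1, and over all probes it was lowest for 42.5% and highest for 38.6%.

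In DMSO embryos each of the genes rose at 1 or more steps as the embryos grew. Of 39 steps between neighbouring stages (13 probes, 3 steps), 17 had an adjusted p under 0.05, and all 17 were higher at the later stage. They fell on 4 probes of 3 genes between 1 and 2 dpf, 8 probes of 5 genes between 2 and 3 dpf and 5 probes of 3 genes between 3 and 4 dpf, where 12.3%, 8.97% and 4.69% of all probes rose. The median step of the 13 probes was 0.56, 2.32 and 0.36 on the log2 scale. Neighbouring stages share their middle group, so the steps are not independent.

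rhag and the carbonic anhydrases rose earliest. rhag was at 8.92, 9.19 and 8.65 at 2 dpf, against 6.08, 7.26 and 6.60 at 1 dpf, a step of 2.27 (SE 0.32, limma adjusted p 2.04e-05), and its later steps of 0.70 and 0.16 did not pass. ca2 rose by 0.95 (SE 0.17, adjusted p 0.000234) on the main probe and 0.99 (SE 0.17, adjusted p 0.00015) on the other. ca15a was at 9.52 to 9.69 at 2 dpf, against 8.67 to 9.01 at 1 dpf, a step of 0.72 (SE 0.22, adjusted p 0.0219) whose adjusted p was 0.0619 and 0.0638 without DMSO replicates 1 and 2 of 1 dpf and 0.112 without DMSO replicate 1 of 2 dpf, and 0.0554 without the replicate block. None of these genes passed at a later step.

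The epithelial Rh genes and atp2b1b rose between 2 and 3 dpf. rhcga was at 7.92, 8.32, 5.55 and 6.73 at 3 dpf, against 4.64, 4.84 and 3.48 at 2 dpf, a step of 2.82 (SE 0.56, adjusted p 0.00144), and the other probe gave 2.72 (adjusted p 0.000769), at least 4.89-fold after quantile normalization since no 2 dpf array was well above background there. Over the alternatives the step of that other probe ran from 0.46 to 3.69, with a limma adjusted p of at most 0.00875. rhbg rose by 2.32 (SE 0.17, adjusted p 2.33e-08) on the main probe and 2.43 on the other, and atp2b1b by 3.27 (SE 0.37, adjusted p 3.57e-06). The lowest 3 dpf array lay above the highest 2 dpf array for all of these probes. The share of all probes of which this was true was not computed. Between 3 and 4 dpf rhcga changed by -0.28 and -0.58 and atp2b1b by -0.16, none past the test.

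rhcgb rose at both later steps. Its main probe was at 6.77, 6.72, 7.41 and 7.32 at 3 dpf, against 3.62, 4.32 and 3.51 at 2 dpf (step 3.07, SE 0.84, adjusted p 0.0161), and at 9.58 to 10.04 at 4 dpf (step from 3 dpf 2.76, SE 0.77, adjusted p 0.0236). The arrays of the 3 stages did not overlap, and the share of all probes without such overlap was not computed. The adjusted p of the earlier step was 0.0869 without DMSO replicate 3 of 2 dpf and 0.0529 without DMSO replicate 1 of 3 dpf, and that of the later step was 0.0505 to 0.0823 without DMSO replicate 2 or 4 of 3 dpf or DMSO replicate 1, 2 or 3 of 4 dpf. Without E2 replicate 1 of 3 dpf, which widens the spread of this probe, the adjusted p-values were 3.02e-07 and 7.6e-07. With the slide as the block, the step between 2 and 3 dpf had an adjusted p of 0.0919 on this probe and 0.221 on the other, and with normexp correction the other probe's step was 0.45 (adjusted p 0.284). The other probe rose by 3.55 (adjusted p 0.00403) from a 2 dpf group that was not well above background. Set against the background level of that group, it was 4.24-fold higher after quantile normalization. This is no lower bound, since only 3 of 4 DMSO arrays of 3 dpf were well above background. It then rose by 2.50 (adjusted p 0.0304), a step with adjusted p of 0.0570 to 0.114 without any 1 of DMSO replicates 1, 2 and 4 of 3 dpf and the 4 DMSO replicates of 4 dpf. The adjusted p of this step was 0.0582 with the slide as the block and 0.0665 after scaling to the 75th percentile.

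trpv6 rose latest. Its main probe was at 9.53, 8.91, 10.36 and 9.52 at 4 dpf, against 7.48, 5.72, 8.64 and 8.36 at 3 dpf, a step of 2.03 (SE 0.42, adjusted p 0.00286), and the other probe rose by 1.59 (SE 0.34, adjusted p 0.00379). All 4 arrays of 4 dpf were above all 4 of 3 dpf, and the share of all probes with this was not computed. Without the replicate block the adjusted p of the main probe was 0.0722. The A_15_P101761 probe also rose by 1.32 (SE 0.37, adjusted p 0.0188) between 2 and 3 dpf, but not without DMSO replicate 1 of 2 dpf (adjusted p 0.106) or DMSO replicate 3 of 3 dpf (0.0533), nor with the slide as the block (0.94, adjusted p 0.207). The main probe of rhbg rose by 0.55 (SE 0.16, adjusted p 0.0299) between 3 and 4 dpf, with an adjusted p of 0.0660 to 0.118 without DMSO replicate 2 or 4 of 3 dpf or DMSO replicate 1 or 3 of 4 dpf, 0.0514 after scaling to the 75th percentile and 0.477 without the replicate block.

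**Figure D4:**
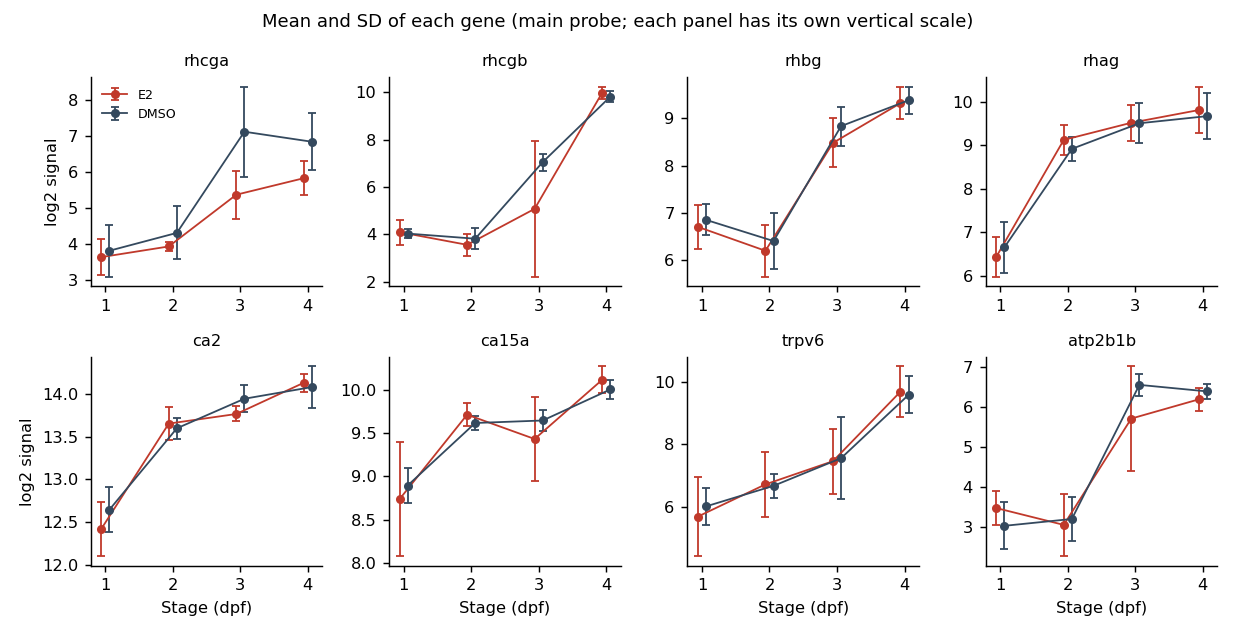
Mean ± SD of the log2 signal (vertical axis, its own scale in each panel) of the main probe of each gene at 1 to 4 dpf (horizontal axis), in E2 (red) and DMSO (dark) embryos, with 3 arrays a group at 1 and 2 dpf and 4 at 3 and 4 dpf. rhag, ca2 and ca15a have their only rise past the test between 1 and 2 dpf, rhcga and atp2b1b between 2 and 3 dpf, and rhcgb at both later steps, and the E2 and DMSO means lie farthest apart at 3 dpf for rhcgb (5.08 and 7.06), through E2 replicate 1, and rhcga (5.38 and 7.13).

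Other genes of ion transport were described from 9 lists of 78 genes, of which 52 were measured. None passed the study's thresholds at any stage in the fit used here. The study's own lists of altered genes include the Rh family gene rh50 as higher at 1 dpf. They also include the carbonic anhydrase gene ca4b, not measured here, as lower at 3 dpf. The study's tissue analysis has hsd11b2 among the E2-responsive genes of 2 dpf, without a direction. At 1 dpf rh50 changed by 0.43 here (SE 0.65, limma p 0.521), and was well above background on 1 of 3 E2 arrays and 0 of 3 DMSO arrays. Of the 52, 30, 26, 26 and 31 had a negative change at 1, 2, 3 and 4 dpf, with medians of -0.03, -0.01, 0.00 and -0.04. An unadjusted p under 0.05 was found for 0, 1, 2 and 0 of them, where 1.81%, 1.32%, 6.3% and 2.79% of all probes had one. With E2 replicate 1 left out, 30 of the 52 were negative at 3 dpf with a median of -0.04, 0 passed the thresholds and 2 had an unadjusted p under 0.05, which were pth1a and the vitamin D receptor gene vdra (-0.31, p 0.0268, against -0.07 with all arrays). Of the 5 measured genes of acid-secreting ionocytes, among them the proton pump subunit gene atp6v1aa and the ionocyte factor gene foxi3b, none had a negative change at 3 dpf and the median was 0.05, but without E2 replicate 1 foxi3b was at -0.16 and 3 of the 5 were negative.

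Of the genes with an unadjusted p under 0.05, which are named here after their values were seen, hsd11b2, whose enzyme inactivates cortisol, was at -0.62 (SE 0.22, p 0.0109) at 2 dpf. The Rh family gene rh50 was at -1.19 (SE 0.57, p 0.0493) at 3 dpf, with 0.62, 4.15, 3.79 and 3.55 in E2 replicates 1 to 4 and 4.55, 4.52, 3.72 and 4.07 in DMSO replicates 1 to 4. Only E2 replicate 1 of rh50 lay far from the rest. Without that array its change was -0.45 (SE 0.46, p 0.342). The parathyroid hormone gene pth1a was well above background on 3 of 4 E2 arrays and 0 of 4 DMSO arrays at 3 dpf. Set against the background level of the DMSO arrays, it was 1.42-fold higher with E2, a value that was not itself tested. This fold is no lower bound, since not every E2 array was well above background. For the signals as measured, without that background level, the limma p was 0.0368 (adjusted p 0.654), and 0.0499 without E2 replicate 1.

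**Figure D5:**
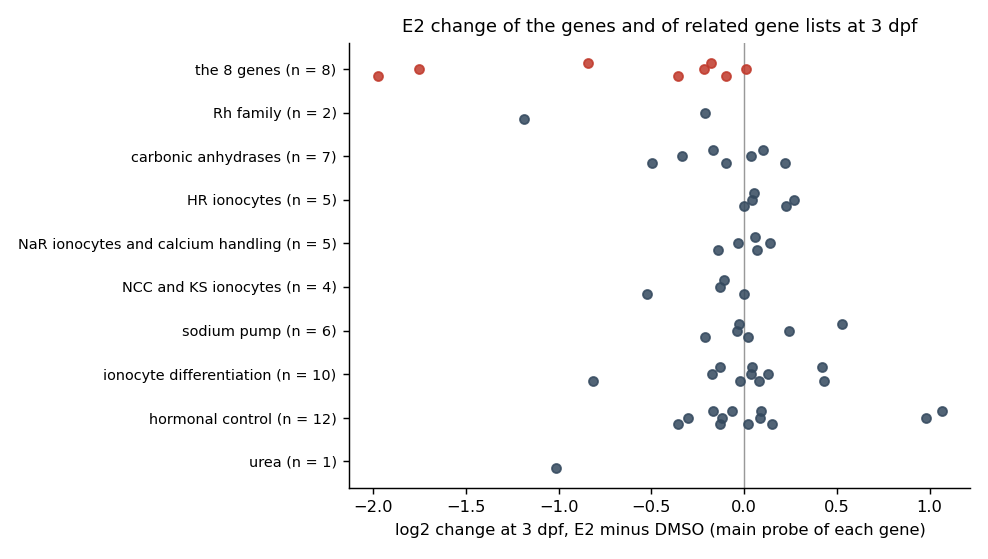
Log2 change at 3 dpf, E2 minus DMSO (horizontal axis), of the main probe of each of the 8 genes (red) and of each measured gene of the 9 lists (dark), 1 point a gene. The 8 genes reach down to -1.98 (rhcgb) and -1.75 (rhcga), and the 5 genes of acid-secreting ionocytes lie at or above 0 with all arrays.

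Markers of the cells that could carry these genes were also summed on the linear scale and are given as log2. For the epidermis, 6 of 8 markers were measured, all 6 had a negative change at 3 dpf with a median of -0.10, and none passed the study's thresholds, while the summed level was 19.17 to 19.23 with E2 and 19.21 to 19.32 with DMSO. For acid-secreting ionocytes, 5 of 6 were measured and 3 had a negative change, which were rhcga, ca2 and ca15a, all of them members. The measured markers outside the members, atp6v1aa and gcm2, had no negative change with all arrays. Of the markers rhcga alone passed. Their summed level was 15.01 to 15.10 with E2 and 15.12 to 15.21 with DMSO. These did not overlap, as was the case in this direction for 1.14% of single probes, a share that is no baseline for a sum. The sum is not independent of the 8 genes. Taken from the mean log2, the linear signal of ca2 was 13898 with E2 and 15718 with DMSO, and that of rhcga 41.6 and 140, so rhcga adds little to it. The markers of the epidermis and acid-secreting ionocytes were well above background on every array of 3 dpf. For the pronephros, 2 of 6 measured markers had a negative change (median 0.04), and the summed level was 11.46 to 11.86 with E2 and 11.48 to 11.83 with DMSO. For the liver 1 of 3 did (median 0.19), fabp10a passing the study's thresholds as lower, with a summed level of 15.06 to 15.42 with E2 and 14.76 to 15.41 with DMSO. For NaR ionocytes 1 of 2 did (median 0.02), and the only measured marker of NCC ionocytes did, with overlap of the groups in both. With E2 replicate 1 left out, the E2 ranges of the epidermis and of acid-secreting ionocytes were the same, and 6 of 6 and 4 of 5 markers were negative. The part of these cells in the rhcga difference was not tested.

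The genes most like rhcga were found by the Pearson correlation of their main probe with that of rhcga, given without a test. Over the 28 arrays, which differ mostly by stage, the 5 highest of 9819 genes were irg1l (0.875), rtn4rl1b (0.827), nfkbiab (0.822), thraa (0.820) and cldn33b (0.820). Over the 14 E2 minus DMSO pair differences, they were ankrd22 (0.895), dhrs13a.2 (0.877), id2b (0.789), atp6v1f (0.788) and slc66a1 (0.788). The lists had no gene in common, and none of the 10 passed the study's thresholds at 3 dpf.

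Within the set, atp2b1b (0.742) and rhbg (0.716) were most like rhcga over the 28 arrays and ca15a (0.478) least. Over the pair differences the correlations were 0.453 for atp2b1b, 0.311 for rhcgb and 0.140 for rhbg, and lay between -0.365 (trpv6) and 0.061 (ca15a) for the others. These include pair 1 of 3 dpf, with E2 replicate 1, where the difference was -5.94 for rhcgb and -2.52 for atp2b1b. It was the largest in size of the 14 for both genes, and the correlations were not computed without it. The probes of rhcga themselves correlated at 0.945 over the 28 arrays and at 0.733 over the 14 pair differences.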

How the data were processed

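RNA of 28 pools of zebrafish embryos was labelled with 1 dye and hybridized to Agilent arrays of 43803 spots (43603 probes), on 7 slides and in 3 scan batches. The intensity values (processed signal of each spot) were made by the authors' facility with Agilent Feature Extraction (version 11.0.1.1 per the methods and 10.7.3.1 per the file headers), which subtracts the background. The series' deposited value table holds the same intensity values. Steps before the scan are those of the study's methods.

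Here outlier spots were left out, log2 values of the spots quantile-normalized between arrays, and spots of a probe then averaged. limma 3.58.1 (R 4.3.3) was fitted to all 28 arrays with 8 groups and the replicate number as a block, with Benjamini-Hochberg adjustment over all probes. The block was shared by all stages, so a replicate number is assumed to have the same effect at each stage, which was not tested. Pairs within a stage were not modelled separately. They are the block when only 1 stage's arrays are fitted. That fit reversed the calls of the main rhcga probe, which missed the study's thresholds at 3 dpf and passed them at 4 dpf. Per the methods, clutches were divided between E2 and DMSO and replicates came from different batches, and in all 14 pairs of the same number the deviations from the group means correlated above 0.1 (0.173 to 0.649, median 0.318, against -0.202 for different numbers). Centring on group means in part makes different numbers correlate negatively. Replicates 3 and 4 shared a slide at 3 and at 4 dpf, and there different numbers correlated at 0.300 and 0.284 (3 dpf) and 0.450 and 0.337 (4 dpf). Of the 14 pairs 10 were on 1 slide, and in these a shared clutch cannot be told from a shared slide. The pairs of replicate 2 were split between slides at every stage and correlated at 0.293, 0.278, 0.231 and 0.334 at 1, 2, 3 and 4 dpf. The fit was tested on simulated data. Tables were handled in Python 3.11.15 with pandas 2.3.3 and numpy 2.4.6, and figures drawn with matplotlib 3.10.9.

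Probes were named by accession through a RefSeq table of the assembly GRCz12tu (15163 probes) and 3 from the study's list of altered genes. Every member with a probe was named, and array values were given for comparisons past a threshold. The members and lists were chosen with earlier results of these data known. Alternatives were 75th percentile scaling, normexp background correction, no block, slide or scan batch as block, only 1 stage's arrays and array weights. Others were a filter on dim probes, a one-way analysis of variance written here after the methods, the value table, another probe of the gene, and each array left out.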

Additional observations from a re-analysis of the deposited data

Results flagged for a closer look

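The main rhcgb probe (A_15_P117649) read 0.831 on E2 replicate 1 of 3 dpf, and its gap to the next E2 array, at 5.96, was 0.850 of the range of the 4 E2 arrays, above Dixon's critical value for a group of this size. Of the 52 groups of 4 arrays examined, 1 exceeded the value, which chance alone would make about 1 in 20 exceed.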

How the results depend on the processing

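The number of member probes past the study's thresholds at 3 dpf was 3. It was 1 under 75th percentile scaling (the main rhcgb probe, none of the 3). It was also 1 with only the arrays of that stage and by the one-way analysis of variance written here after the methods. With each array left out it was between 1 and 4. At 2 dpf it was 0, and 1 with array weights (rhbg). At 4 dpf it was 0, but 2 with only the arrays of that stage (both rhcga probes), and between 0 and 1 with each array left out. At 1 dpf and for the stage-by-E2 difference it was 0 throughout. The 17 steps between stages of DMSO embryos became 14 to 18 with each array left out and 14 to 19 under the other alternatives. With no replicate block the numbers were 0, 0, 3 and 0 at 1, 2, 3 and 4 dpf, 0 for the stage-by-E2 difference and 14 for the steps, and 1 rhcga probe (A_15_P223536) reached an adjusted p of 0.0485 at 3 dpf. No result past a threshold changed sign under any alternative, and of 743 values of the 20 results past a threshold 51 fell short of it. Of the 49 E2 comparisons of single probes that missed the study's thresholds, 26 changed sign under at least 1 alternative and 5 passed under at least 1. The calls over all 43603 probes moved too. At 2 dpf 100 passed in the main fit and 366 with array weights. At 4 dpf 215 passed, and 300 with only the arrays of that stage. At 3 dpf 334 passed, against 898 and 925 without E2 replicates 3 and 4. There 421 passed under 75th percentile scaling and 140 with only the arrays of that stage.

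The 3 dpf calls depended on scaling. Scaling to the 75th percentile moved the median change of all probes to 0.24 and made 89.3% of the probes past the study's thresholds higher with E2, against 38.9% after quantile normalization. The shares higher were 70.1% against 58.1% at 4 dpf and 39.0% against 49.2% at 1 dpf. Relative to that median, rhcga was at -1.78 on the main probe and -1.84 on the other (unshifted -1.54, p 0.0146, and -1.60, p 0.0270). The causes of these changes were not tested. With normexp correction, an alternative chosen after seeing the data because the files hold no mean signal and the planned version was not run, the A_15_P223536 probe changed by -0.46 (p 0.00015), under the fold threshold. Signal near background limits that probe at every stage and the other rhcgb probe before 3 dpf.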
